A study of Mus musculus with 39 samples.

Results

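The T cell identity genes are 31 mouse genes that define T cells or their main subsets: the CD3 chains of the antigen receptor, the CD4 and CD8 co-receptors, adhesion and costimulatory receptors, proximal signalling proteins, lineage transcription factors, and cytokine and chemokine receptors. They were picked by symbol from a fixed list, and all 31 were found among the 20520 genes of the deposited table. The choice used no measured value of the table, although the list was drawn up with earlier results of these data known. The study compared PB2 mouse breast tumors with 2 forms of the HER2 receptor: full-length HER2 (FL-HER2) and p95HER2, a truncated form without most of the extracellular domain. Collection was at 10 or 22 days from implantation, and the poly(A) RNA was sequenced in bulk. The 39 libraries form 4 groups: 10 of FL-HER2 and 10 of p95HER2 at day 10, and 9 of FL-HER2 and 10 of p95HER2 at day 22. All groups share the PB2 background, and no group without a HER2 construct was analysed here. The sources used here give neither the host strain, the age of the animals, the vector that carries the constructs, nor whether a library is 1 tumor of 1 animal, so the p-values reflect only how these libraries vary, and that variation may be technical. Each library carries a tumor number: among those of FL-HER2 at day 10, 8 of 10 have a number of 5 digits by the sample descriptions and the table, and every other library has one of 3 digits. The title of 1 of these 8, replicate 8, gives a number with the last digit missing, which is still longer than 3 digits.

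T cells recognise peptides on MHC molecules through the antigen receptor, whose signal passes through the CD3 and zeta chains to the kinases Lck and Zap70 and the adaptor Lat. CD4 marks helper and regulatory T cells, CD8 marks cytotoxic T cells, and Foxp3 is the lineage factor of regulatory T cells. In a solid tumor these cells come from the host, so their transcripts are a small part of bulk tumor RNA. In such samples fewer T cells and less RNA per T cell cannot be told apart.

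The 3 CD3 chain genes Cd3d, Cd3e and Cd3g lie side by side on chromosome 9 (mm10), and their values moved together across libraries, so the sequences around their starts are shown. Cd3g (44969572 to 44980431, minus strand) and Cd3d (44981786 to 44987339, plus strand) are transcribed away from each other with 1354 bases between them, and Cd3e (44998740 to 45009627, minus strand) lies 11400 bases beyond Cd3d. The windows run from 250 bases before to 50 bases after the RefSeq start (GRCm38.p6), at chr9:44981536-44981835 on the plus strand for Cd3d, and at chr9:45009562-45009861 and chr9:44980382-44980681 on the minus strand for Cd3e and Cd3g. Capitals mark matches, on either strand, to 4 short words contained in the motifs of factor families active in T cells: AGGAAG for ETS factors, TGTGGT for RUNX factors, CTTTGA for TCF factors and AGATAA for factors of the GATA family.
Cd3d: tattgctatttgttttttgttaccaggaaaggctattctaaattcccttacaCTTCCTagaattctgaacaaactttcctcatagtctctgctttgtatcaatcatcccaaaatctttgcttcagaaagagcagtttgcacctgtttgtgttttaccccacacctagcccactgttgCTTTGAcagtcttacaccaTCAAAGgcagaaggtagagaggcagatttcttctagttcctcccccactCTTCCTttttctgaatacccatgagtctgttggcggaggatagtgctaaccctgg
Cd3e: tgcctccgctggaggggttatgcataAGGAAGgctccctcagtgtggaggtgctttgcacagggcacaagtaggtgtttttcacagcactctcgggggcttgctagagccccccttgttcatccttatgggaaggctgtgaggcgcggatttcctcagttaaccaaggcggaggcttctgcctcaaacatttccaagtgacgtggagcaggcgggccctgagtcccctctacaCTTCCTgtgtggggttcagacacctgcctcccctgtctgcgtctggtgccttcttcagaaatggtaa
Cd3g: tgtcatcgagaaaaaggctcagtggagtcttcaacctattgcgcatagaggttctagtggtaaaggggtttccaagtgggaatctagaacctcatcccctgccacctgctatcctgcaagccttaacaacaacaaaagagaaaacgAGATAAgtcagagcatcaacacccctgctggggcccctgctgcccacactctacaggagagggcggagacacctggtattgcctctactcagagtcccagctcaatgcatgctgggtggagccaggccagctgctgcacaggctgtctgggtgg
The Cd3d window holds 2 ETS and 2 TCF words, the Cd3e window 2 ETS words, and the Cd3g window 1 GATA word. Windows were found for 20 of the 31 members, 26 windows in all, and 15 of them (57.7%) hold the ETS word, against 35.4% of all 32851 windows of this length. The other words were in 26.9% of member windows for TCF (16.0% of all), 19.2% for RUNX (16.8%) and 15.4% for GATA (11.2%). These matches describe letters and are not sites of binding.

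The libraries held 21772259 to 44427621 reads, and 1 CPM, the read count scaled to the library total, stood for at least 21.8 reads. Tests used the 13650 genes that reached 1 CPM in 9 or more libraries. Of the members, 25 passed this filter. Cd40lg, Themis, Sh2d1a, Ubash3a, Trat1 and Ccr4 did not. Cd5, Cd6, Cd7, Cd27, Skap1, Foxp3, Ikzf3 and Ccr8 passed only with the help of the FL-HER2 day 22 libraries, so counts over the tested members are given beside those of a fit with a filter at 0.1 CPM (16406 genes), which holds all 31. In that fit Trat1 and Cd40lg in turn passed only with the help of FL-HER2 day 22, since 5 and 7 libraries outside that group reached 0.1 CPM and 9 were needed. Skeletal muscle markers took 0.0525% to 3.97% of reads in FL-HER2 at day 10 and at most 1.09% in any other library. Skin markers were high, with a mean log2 value above 5, in 11 libraries: 2 of FL-HER2 and 5 of p95HER2 at day 10, and 1 and 3 at day 22. The defining T cell markers Cd3d, Cd3e, Cd3g, Cd247, Lck and Cd2 had at least 1 read in every library.

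Most members were highest in FL-HER2 tumors at day 22. This group had the highest mean of the 4 for 29 of the 31 members, the exceptions being Tcf7, highest in p95HER2 at day 10, and Bcl11b, highest in FL-HER2 at day 10. Summed over the members without Tcf7, the most abundant of them, the level was 29.7 to 66.7 CPM in FL-HER2 at day 10 (median 47.4) and 50.7 to 187 CPM at day 22 (median 117). In p95HER2 it was 21.0 to 141 CPM at day 10 (median 35.6) and 18.8 to 112 CPM at day 22 (median 41.5). The median was thus highest in FL-HER2 at day 22, and the ranges of all 4 groups overlapped.

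**Figure D1:**
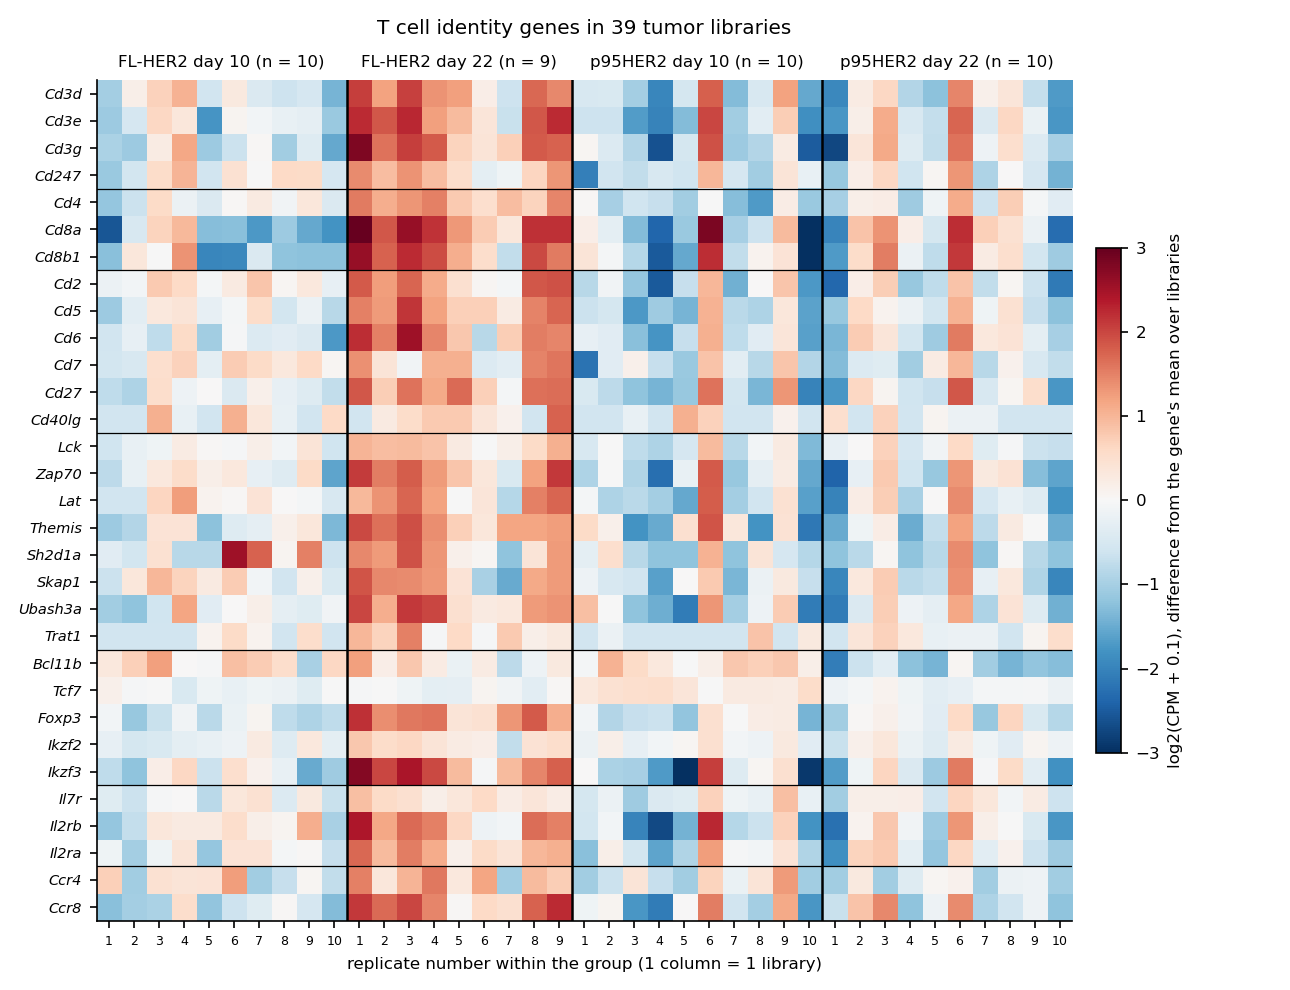
Each row is a member and each column a library; color gives log2(CPM + 0.1) minus the gene's mean over the 39 libraries, and thin lines separate roles. Most rows are red in FL-HER2 at day 22, while in p95HER2 replicate 6 stands out at each day, the highest of its group in 24 of 31 members at day 10 and in 22 at day 22.

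The first comparison asks how the 2 constructs differed at day 22. Here 13 of the 25 tested members were lower in p95HER2 and 0 were higher, with a median log2 change of -1.44 against -0.0069 over all genes. Over all genes 1.54% were lower and 2.98% were higher at the same threshold, an adjusted p under 0.05 from the limma fit. With the filter at 0.1 CPM, 15 of 31 members were lower, against 1.3% of genes. The second comparison follows FL-HER2 from day 10 to day 22, and 17 of 25 members rose while 0 fell (median 1.18). In it 20.7% of all genes rose and 30.6% fell, and with the filter at 0.1 CPM 19 of 31 members rose, against 18.4% of genes. Trat1, 1 of these 19, passed that filter only through FL-HER2 day 22, so its call is not counted as a result. Of the 17, Cd5, Cd6, Cd27, Foxp3, Ikzf3 and Ccr8 passed the main filter only through that group. The same holds for Cd5, Cd6, Cd27, Foxp3 and Ikzf3 among the 13 at day 22. Each of these calls remained with the filter at 0.1 CPM, which these genes passed without the help of FL-HER2 day 22. Because both comparisons use the FL-HER2 day 22 libraries, they are not independent of each other.

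The other 3 comparisons gave few calls. Between the constructs at day 10, 1 member (Tcf7) was higher and 1 (Cd2) lower in p95HER2, where 15.2% of all genes were higher and 26.1% lower (median of the members -0.35). With time in p95HER2, 0 members rose and 2 (Tcf7 and Bcl11b) fell, against 16.6% of genes that rose and 18.6% that fell. With the filter at 0.1 CPM, 1 of 31 members was higher and 0 were lower at day 10, against 13% and 24.2% of genes, and 2 fell with time in p95HER2, against 16.3%. At an unadjusted p under 0.05, 4 and 3 of the 25 members differed in these comparisons, against 49.0% and 43.2% of all genes. The interaction of construct and time, which is how far the effect of p95HER2 at day 22 differed from that at day 10, was called for 4 of the 25 tested members, each in the negative direction: Tcf7, Foxp3, Bcl11b and Ikzf2. In that test 13.5% of all genes were called in the positive direction and 6.2% in the negative, and with the filter at 0.1 CPM 4 of 31 members were called in the negative direction, against 5% of genes. At an unadjusted p under 0.05, 9 of the 25 members differed, these 4 included, against 34.0% of all genes. For the other 21 members the difference between the 2 effects did not pass the test.

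Scaling bears on these directions at day 10 and with time, because it moved the median of all genes by over 0.1 on the log2 scale or changed the balance of calls. In FL-HER2 with time that median was -0.033 as deposited, 0.081 after quantile normalization and 0.085 with library totals, and the genes called higher and lower went from 2830 and 4181 to 5002 and 3002, and to 4856 and 2885. At day 10 it went from -0.041 to 0.067 with quantile normalization, with 3908 genes higher and 2256 lower in place of 2071 and 3565, and with totals 2918 were higher and 2719 lower. With time in p95HER2 the genes called went from 2262 higher and 2537 lower to 3342 and 1840 with totals, and for the change between days from 1836 and 846 to 1210 and 1623 with quantile normalization and to 1351 and 1139 with totals. The members rose with time in FL-HER2 in either case (22 and 18 called). At day 10 their median turned from -0.35 to 0.26 with quantile normalization and stayed at -0.29 with totals, so no direction is given for the members at day 10 as a group.

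**Figure D2:**
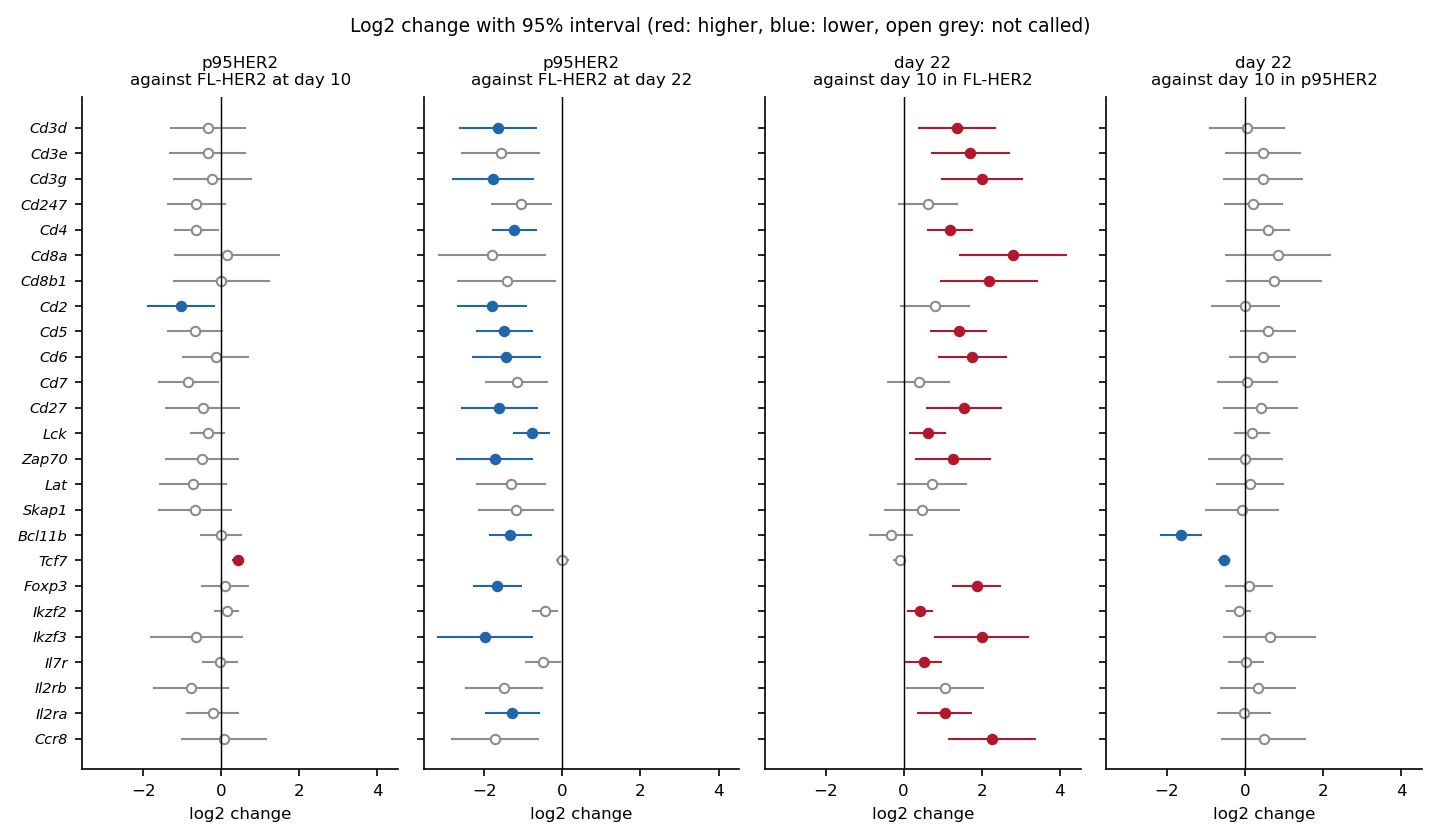
Points give the log2 change of each tested member in 4 comparisons and lines its 95% interval; filled points passed the test. At day 22 the points of 24 of the 25 members lie below 0, and with time in FL-HER2 those of 23 lie above it.

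Among the antigen receptor genes, Cd3d, Cd3e and Cd3g rose with time in FL-HER2. Cd3e, which encodes the epsilon chain, ranged from 0.501 to 3.03 CPM in FL-HER2 at day 10 (median 1.61) and from 1.18 to 9.71 CPM at day 22 (median 7.32). In p95HER2 it ranged from 0.413 to 8.06 CPM at day 10 (median 1.06) and from 0.507 to 6.74 CPM at day 22 (median 1.55). Of the 9 FL-HER2 libraries at day 22, 7 were above all 10 at day 10, and all 10 p95HER2 libraries at day 22 were below the median of FL-HER2 at that day. The rise in FL-HER2 was 1.70 ± 0.49 (log2, SE; adjusted p = 0.00353), while the difference at day 22 was -1.59 ± 0.49 and did not pass (adjusted p = 0.0504). Cd3e overlaps the annotated genes Gm48719 on the other strand and Gm48720 on its own, and 16 of the 31 members overlap some other annotated gene. The counting of strand is not given in the sources used here.

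Cd3g, the gamma chain, had the largest changes of the complex in these comparisons. It ranged from 0.574 to 4.28 CPM in FL-HER2 at day 10 (median 1.03) and from 2.48 to 13.6 CPM at day 22 (median 6.61). In p95HER2 at day 22 it ranged from 0.197 to 5.94 CPM (median 1.53), and 7 of the 10 libraries were below all 9 of FL-HER2. The rise with time in FL-HER2 was 2.01 ± 0.50 (4.02-fold, adjusted p = 0.00109). At day 22 the level in p95HER2 was 3.42-fold lower (-1.77 ± 0.50, adjusted p = 0.0336).

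Cd3d, the delta chain, had medians of 0.804 and 3.08 CPM at days 10 and 22 in FL-HER2, and of 0.774 and 0.971 CPM in p95HER2. The ranges at day 22 were 0.714 to 5.17 CPM and 0.225 to 3.34 CPM and overlapped. It rose by 1.37 ± 0.48 in FL-HER2 (adjusted p = 0.0158) and was 3.13-fold lower in p95HER2 at day 22 (-1.65 ± 0.48, adjusted p = 0.0378). Cd247, the zeta chain that carries most of the signalling motifs, had the smallest change with time in FL-HER2 of the 4 and passed in no comparison. Its means were 1.06 ± 0.518 and 1.75 ± 0.701 CPM in FL-HER2 at days 10 and 22 and 0.743 ± 0.506 and 0.922 ± 0.660 CPM in p95HER2 (SD), and its change with time in FL-HER2 was 0.63 (95% interval -0.13 to 1.38).

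The co-receptors rose with time in FL-HER2, all 3 of them. Cd8a, the alpha chain of CD8, went from 0.402 to 5.69 CPM at day 10 (median 1.13) to 3.66 to 26.2 CPM at day 22 (median 13.3), a rise of 2.81 ± 0.67 (adjusted p = 0.000665). It was the largest rise among the tested members. In p95HER2 it ranged from 0.0275 CPM (1 read) to 20.9 CPM at day 10 and from 0.510 to 13.6 CPM at day 22, with medians of 1.62 and 3.63 CPM. Although its level at day 22 was 3.49-fold lower in p95HER2, the groups overlapped and the difference did not pass (-1.80 ± 0.67, adjusted p = 0.124). Cd8b1, the beta chain, which lies 35932 bases from Cd8a on chromosome 6, rose by 2.19 ± 0.61 in FL-HER2 (adjusted p = 0.00309), from a median of 0.558 to 5.08 CPM. Its median in p95HER2 was 1.09 CPM at day 10 and 1.48 CPM at day 22.

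Cd4 differed between the constructs at day 22. It ranged from 0.750 to 2.69 CPM in FL-HER2 at day 10 (median 1.62) and from 2.57 to 5.50 CPM at day 22 (median 3.94), with 8 of the 9 later libraries above all earlier ones. In p95HER2 it ranged from 0.482 to 2.09 CPM at day 10 (median 0.959) and from 0.802 to 3.97 CPM at day 22 (median 1.67), with 8 of the 10 later libraries below all of FL-HER2. The rise in FL-HER2 was 1.18 ± 0.28 (adjusted p = 0.000477) and the difference at day 22 was -1.23 ± 0.28 (2.35-fold lower, adjusted p = 0.00592). Some macrophages and dendritic cells also transcribe Cd4. Macrophage markers fell in 7 of 14 genes with time in FL-HER2, against 30.6% of all genes. In p95HER2 at day 22, 2 of the 14 were lower, against 1.54% of all genes. The part of macrophages in the Cd4 values was not tested.

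**Figure D3:**
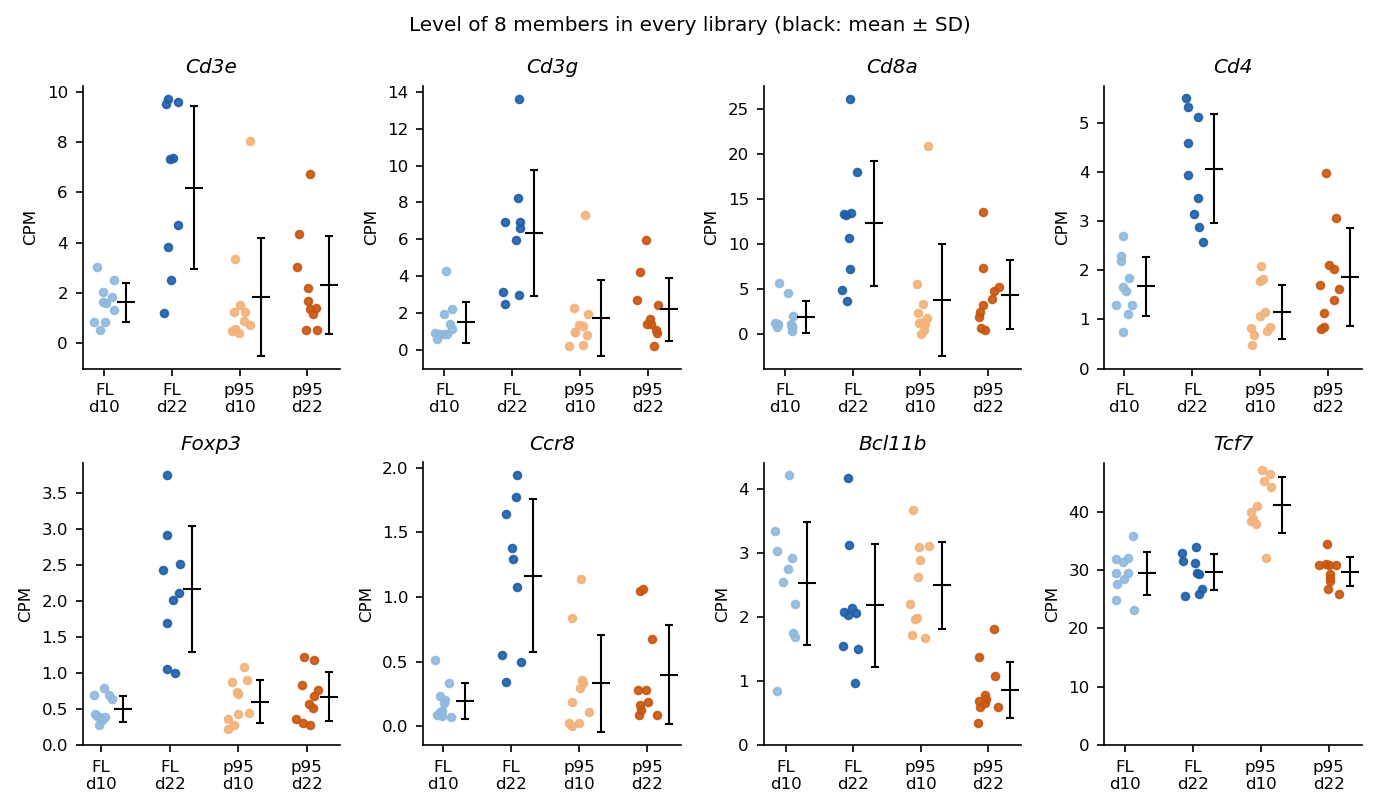
Points are the CPM of 8 members in each library, by construct (FL, p95) and day (d10, d22); black marks are the mean and SD of the group. The 9 FL-HER2 day 22 libraries lie above all FL-HER2 day 10 libraries for Foxp3, Bcl11b is low in p95HER2 at day 22, and Tcf7 is high in p95HER2 at day 10.

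Of the 6 adhesion and costimulation genes, 5 were tested, and Cd5, Cd6 and Cd27 rose with time in FL-HER2 while Cd2, Cd5, Cd6 and Cd27 were lower in p95HER2 at day 22. Cd2, an adhesion receptor of T and NK cells, ranged from 1.52 to 6.20 CPM in FL-HER2 at day 22 (median 3.89) and from 0.225 to 2.96 CPM in p95HER2 (median 0.953). In 6 of the 10 p95HER2 libraries it was below all FL-HER2 libraries, and the difference was -1.82 ± 0.43 (3.52-fold lower, adjusted p = 0.00946). At day 10 the median was 1.78 CPM for FL-HER2 against 0.894 CPM for p95HER2 (-1.02 ± 0.42, adjusted p = 0.0478), a call that ended for 14 of the 20 libraries when 1 was left out and whose adjusted p ran from 0.0176 to 0.547 over the alternatives.

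Cd5, a receptor that dampens antigen receptor signals, ranged from 0.321 to 1.21 CPM in FL-HER2 at day 10 (median 0.672) and from 0.962 to 3.86 CPM at day 22 (median 2.05). The p95HER2 libraries at day 22 ranged from 0.283 to 1.75 CPM (median 0.705), and 7 of 10 libraries were below all of FL-HER2. It rose by 1.41 ± 0.35 in FL-HER2 (adjusted p = 0.000975) and was 2.81-fold lower in p95HER2 at day 22 (-1.49 ± 0.35, adjusted p = 0.00851). Its neighbour Cd6, a related receptor 50338 bases away on chromosome 19, rose from a median of 0.643 to 2.64 CPM in FL-HER2 (1.76 ± 0.42, adjusted p = 0.000660) and had a median of 0.921 CPM in p95HER2 at day 22 (-1.44 ± 0.42, adjusted p = 0.0392). The TNF receptor family member Cd27 rose from a median of 0.400 to 1.81 CPM in FL-HER2 (1.55 ± 0.47, adjusted p = 0.00637), against 0.446 CPM in p95HER2 at day 22 (-1.62 ± 0.47, adjusted p = 0.0383). Cd5, Cd6 and Cd27 passed the main filter only with the help of FL-HER2 day 22, and their calls remained with the filter at 0.1 CPM. Cd7 passed in no comparison, with means of 0.532 to 1.25 CPM over the groups. Cd40lg, the helper T cell ligand of CD40, was at most 0.413 CPM and had 0 reads in 17 libraries.

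Of the 8 proximal signalling genes, Lck and Zap70 passed. Lck, the kinase that phosphorylates the CD3 chains, was the most abundant member after Tcf7 per length of transcript, at a mean of 2.26 CPM per kb of exon against 12.4 for Tcf7 and 0.712 for Cd3e. It ranged from 3.99 to 7.99 CPM in FL-HER2 at day 10 (median 5.82) and from 6.06 to 12.8 CPM at day 22 (median 11.1). The p95HER2 libraries of that day ranged from 3.74 to 9.88 CPM (median 5.41), and 7 of the 10 libraries were below all of FL-HER2. The changes were smaller than those of the CD3 chains, at 0.62 ± 0.22 for the rise in FL-HER2 (adjusted p = 0.0184) and -0.79 ± 0.22 between constructs at day 22 (adjusted p = 0.0320).

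Zap70, the kinase recruited to phosphorylated CD3 chains, went from a median of 1.31 to 3.33 CPM in FL-HER2 (1.27 ± 0.47, adjusted p = 0.0232) and stood at 0.966 CPM in p95HER2 at day 22 (-1.74 ± 0.47, adjusted p = 0.0247). The rise lost its call without FL-HER2 day 10 replicate 10 (adjusted p = 0.0513). The adaptors Lat and Skap1 passed in no comparison. Lat had means of 1.53 and 2.95 CPM in FL-HER2 and of 1.22 and 1.31 CPM in p95HER2 at days 10 and 22, and Skap1 had 0.872, 1.58, 0.595 and 0.710 CPM in the same order. Of the 4 that were too low for the main filter, Themis, needed for T cell development, ranged from 0.0749 to 0.489 CPM in FL-HER2 at day 10 and from 0.459 to 1.64 CPM at day 22. With the filter at 0.1 CPM, Themis (1.83 ± 0.55, adjusted p = 0.00629) and Ubash3a (1.58 ± 0.56, 0.0197) rose in FL-HER2, and Themis (-2.04 ± 0.55, 0.0276) and Ubash3a (-1.87 ± 0.56, 0.0494) were lower in p95HER2 at day 22. Sh2d1a, an adaptor of SLAM family receptors, was highest in 1 library of FL-HER2 at day 10 (1.24 CPM) and passed in no comparison. Trat1, an adaptor of the antigen receptor complex, was at most 0.121 CPM in FL-HER2 at day 10, 0.0450 to 0.322 CPM at day 22 and at most 0.170 CPM in p95HER2, and its call in the fit at 0.1 CPM, 1 of the 19 that rose, is not counted as a result, because the gene passed that filter through the group in which it was high.

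The transcription factors did not move as a block. Foxp3, the factor of regulatory T cells, rose with time in FL-HER2, did not pass in p95HER2, and the difference between these changes passed the test. Foxp3 passed the main filter only with the help of FL-HER2 day 22, and each of its calls remained with the filter at 0.1 CPM. It ranged from 0.284 to 0.796 CPM in FL-HER2 at day 10 (10 to 27 reads, median 0.414 CPM) and from 0.997 to 3.75 CPM at day 22 (23 to 114 reads, median 2.11 CPM). In p95HER2 it ranged from 0.220 to 1.09 CPM at day 10 (median 0.572) and from 0.283 to 1.23 CPM at day 22 (median 0.628). Every FL-HER2 library at day 22 was above every one at day 10, and 8 of the 10 p95HER2 libraries at day 22 were below all FL-HER2 libraries of that day. How many of all genes separate the groups in this way was not counted. The change with time was 1.87 ± 0.30 in FL-HER2 (3.66-fold, adjusted p = 2.07e-06) and 0.10 in p95HER2 (95% interval -0.49 to 0.69). At day 22 p95HER2 was 3.19-fold lower (-1.68 ± 0.30, adjusted p = 0.000319), and the interaction was -1.77 ± 0.42 (adjusted p = 0.00271). That interaction kept its call in each of the 39 fits without 1 library and lost it with the digits of the tumor number as a term (-1.67, adjusted p = 0.142), a fit in which the FL-HER2 day 10 level rests on 2 libraries. Foxp3 overlaps 4 annotated genes, among them Flicr on its own strand and Ccdc22 and Ppp1r3f on the other.

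Bcl11b, a factor of T cell commitment that is also expressed in epithelium, had its own pattern. It ranged from 0.840 to 4.22 CPM in FL-HER2 at day 10 (median 2.64), from 0.962 to 4.18 CPM at day 22 (median 2.07), from 1.67 to 3.67 CPM in p95HER2 at day 10 (median 2.41), and from 0.338 to 1.81 CPM in p95HER2 at day 22 (median 0.699). The p95HER2 day 22 libraries were the low group, with 9 of 10 below all p95HER2 libraries at day 10 and 7 of 10 below all FL-HER2 libraries at day 22. The fall with time in p95HER2 was -1.65 ± 0.25 (3.13-fold lower, adjusted p = 2.02e-06), the difference at day 22 was -1.33 ± 0.26 (adjusted p = 0.00130), and the change between days was -1.32 ± 0.37 (adjusted p = 0.0101). With time in FL-HER2 it did not pass (-0.33, 95% interval -0.86 to 0.20), and no single library ended any of the 3 calls. Without the skin-high libraries the change between days was -1.23 (adjusted p = 0.0689).

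Tcf7, which encodes TCF1, a factor of naive and memory T cells, was the member with the highest level and the least spread. It ranged from 23.2 to 35.8 CPM in FL-HER2 at day 10 (median 29.5), from 25.6 to 33.9 CPM at day 22 (median 29.5), from 32.0 to 47.2 CPM in p95HER2 at day 10 (median 40.5) and from 25.9 to 34.5 CPM at day 22 (median 30.1). The p95HER2 day 10 libraries were the high ones, with 9 of 10 above all of p95HER2 at day 22. Tcf7 was 1.35-fold higher in p95HER2 at day 10 (0.43 ± 0.066, adjusted p = 3.08e-06), fell with time in p95HER2 (-0.53 ± 0.066, adjusted p = 2.81e-08), and had an interaction of -0.43 ± 0.094 (adjusted p = 0.00162). At day 22 the constructs differed by between -0.14 and 0.14 (95% interval). Unlike most members, Tcf7 did not vary with Cd3e within groups (r = -0.29), and within p95HER2 at day 10 its r was -0.89. The part of T cells in the Tcf7 values was not tested, so its calls are not read as changes of T cells.

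Ikzf2 (Helios), a factor of regulatory T cells and other cells, rose modestly in FL-HER2, from a median of 5.57 to 9.09 CPM (0.42 ± 0.15, adjusted p = 0.0172), and stood at medians of 6.31 and 6.05 CPM in p95HER2. Its interaction was -0.58 ± 0.21 (adjusted p = 0.0428) and lost its call for 23 of the 39 libraries when 1 was left out (adjusted p up to 0.0743). With the digits of the tumor number as a term it was -0.13 (adjusted p = 0.871), again with the FL-HER2 day 10 level resting on 2 libraries. The change of Ikzf2 with time in FL-HER2 was -0.0064 with the B cell score as a covariate and -0.035 with the digits (adjusted p = 0.986 and 0.941). The B cell score did not overlap between the days in FL-HER2, so the fit with it cannot tell the score from time. Ikzf3 (Aiolos), a factor of lymphocytes, rose from a median of 0.604 to 3.18 CPM in FL-HER2 (1.99 ± 0.59, adjusted p = 0.00501) and was 3.98-fold lower in p95HER2 at day 22 (median 0.710 CPM, -1.99 ± 0.59, adjusted p = 0.0430). Ikzf3 passed the main filter only with the help of FL-HER2 day 22, and its calls remained with the filter at 0.1 CPM.

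The cytokine and chemokine receptors moved with the antigen receptor genes in part. Il2ra, the alpha chain of the IL-2 receptor and a marker of regulatory and activated T cells, ranged from 1.003 to 3.17 CPM in FL-HER2 at day 10 (median 2.20) and from 2.62 to 7.96 CPM at day 22 (median 4.83). At day 22 the p95HER2 libraries ranged from 0.592 to 4.11 CPM (median 1.90), and 7 of 10 libraries were below all of FL-HER2. It rose by 1.05 ± 0.34 in FL-HER2 (adjusted p = 0.00914) and was 2.44-fold lower in p95HER2 at day 22 (-1.29 ± 0.34, adjusted p = 0.0196), a call that ended without FL-HER2 day 22 replicate 1 (adjusted p = 0.0543). Il7r, the IL-7 receptor of naive and memory T cells, had a small rise in FL-HER2 (0.51 ± 0.22, adjusted p = 0.0494), which ended for 12 of 19 libraries when 1 was left out. Il2rb, the beta chain shared by the IL-2 and IL-15 receptors and strong in NK cells, had means of 5.37 and 12.8 CPM in FL-HER2 and of 5.04 and 4.93 CPM in p95HER2, and passed in no comparison.

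Ccr8, a chemokine receptor found on regulatory T cells of tumors, rose with time in FL-HER2 from 0.0749 to 0.517 CPM (median 0.152) to 0.343 to 1.94 CPM (median 1.30), a change of 2.27 ± 0.54 (4.84-fold, adjusted p = 0.000641). In p95HER2 at day 22 it ranged from 0.0850 to 1.06 CPM (median 0.238), and 7 of 10 libraries were below all of FL-HER2, yet the difference did not pass (-1.73 ± 0.54, adjusted p = 0.0567). Ccr8 passed the main filter only with the help of FL-HER2 day 22, and its rise remained with the filter at 0.1 CPM. Ccr4 was at most 0.518 CPM, with 0 reads in 10 libraries, and passed in no comparison.

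The day 22 calls changed to different degrees when 1 library was left out. Calls of Foxp3, Bcl11b, Cd4, Cd2 and Cd5 remained in each of the 19 fits without 1 library of the compared groups, while those of Cd3d, Cd3g, Cd6, Cd27, Lck, Zap70 and Ikzf3 each ended in 6 to 12 of them. The count of 13 fell to 5 without FL-HER2 replicate 1, to 6 or 7 without FL-HER2 replicates 3, 4, 8 or 9, and to 6, 7, 8, 7 and 6 without p95HER2 replicates 1, 4, 5, 9 and 10. It rose to 20 without FL-HER2 replicate 7, whose member sum was the lowest of its group, and to 20 without p95HER2 replicate 6, whose sum was the highest. The share of all genes that were lower also moved, from 1.54% with all libraries. It was 0.593% without FL-HER2 replicate 1, 1.49% without FL-HER2 replicate 7 and 2.48% without p95HER2 replicate 6. The median log2 change of the members was -1.32, -1.62 and -1.64 in the same order, against -1.44 with all libraries. For the other fits without 1 library the share of all genes is not given here, so their counts are not set against it. With the muscle score as a covariate 6 were called (Bcl11b, Cd2, Cd4, Cd5, Foxp3 and Il2ra), against 1.16% of all genes lower in that fit, and without the 11 skin-high libraries 5 were (Bcl11b, Cd2, Cd5, Foxp3 and Ikzf2), against 0.359%. No member was higher in p95HER2 in any of these fits.

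At day 10 p95HER2 replicate 6 stood apart, with a member sum of 173 CPM against 68.2 to 111 CPM in the other 9. It had 20.9 CPM of Cd8a against a median of 1.62 CPM, and 23.8 CPM of Il2rb against 2.86 CPM. Its NK cell markers summed to 35.3 CPM, against a median of 7.20 CPM in its group. Without it, 7 of the 25 tested members were lower in p95HER2 at day 10 (Cd2, Cd4, Cd5, Cd7, Il2rb, Lat and Lck) and Tcf7 was higher. In that fit 26.2% of all genes were lower and 15.2% higher, so the share of the members was near that of all genes. Tcf7 was 32.0 CPM in that library, the lowest of its group.

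Of the 15 B cell and plasma cell markers 4 were tested, and all 4 rose with time in both constructs, against 20.7% of all genes in FL-HER2 and 16.6% in p95HER2. The 15 markers had sums of 16.1 to 25.1 CPM in FL-HER2 at day 10 and 43.5 to 72.0 CPM at day 22. In p95HER2 the sums were 10.2 to 18.5 and 31.8 to 79.0 CPM. These sums came mainly from Pou2af1, with means of 13.3 and 41.3 CPM in FL-HER2, while the B cell marker Ms4a1 had group means of at most 0.205 CPM. The B cell score is the mean log2 value of the 4 tested genes, and whether it follows the amount of B cells was not tested. With the B cell score as a covariate, 0 members rose and 2 (Bcl11b and Skap1) fell with time in FL-HER2, and in p95HER2 7 fell, where 25.7% and 11.0% of all genes fell. Of all genes, 15.7% rose with time in FL-HER2 in that fit. Between the constructs at day 22, 14 members were lower in p95HER2 with that covariate, against 1.59% of all genes. With the digits of the tumor number as a term, Cd8a (3.48, adjusted p = 0.0271) and Foxp3 (1.77, adjusted p = 0.0116) rose in FL-HER2 and no other member passed, where 7.60% of all genes rose. In that fit the FL-HER2 day 10 level rests on 2 libraries, replicates 7 and 9. The median change of the members was 0.72 there, against 1.18 in the main fit.

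The balance of co-receptors was compared as a log2 ratio within each library. Cd8a to Cd4 was -0.21 ± 1.04 (SD) in FL-HER2 at day 10 and 1.41 ± 0.68 at day 22, so that CD8 exceeded CD4 in every FL-HER2 library at day 22, with ratios from 0.075 to 2.24. This rise of 1.62 passed an exact two-sided permutation test (p = 0.00182, adjusted over 8 ratio tests 0.0145). In p95HER2 the ratio was 0.58 ± 1.93 at day 10 and 0.84 ± 1.15 at day 22, and the difference of 0.26 did not pass a permutation test (adjusted p = 0.824). Between constructs it differed by 0.79 at day 10 and by -0.57 at day 22, and neither passed (permutation tests, adjusted p = 0.518 for each). Whether the change with time differed between constructs was not tested.

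The ratio of Foxp3 to Cd3e passed in none of the 4 comparisons. It was -1.52 ± 0.80 and -1.35 ± 0.92 in FL-HER2 at days 10 and 22, and -1.07 ± 0.88 and -1.44 ± 0.71 in p95HER2 (SD), and adjusted p ran from 0.518 to 0.824 in the permutation tests. With time in FL-HER2 the difference of this ratio was 0.17, beside rises of 1.87 for Foxp3 and 1.70 for Cd3e.

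**Figure D4:**
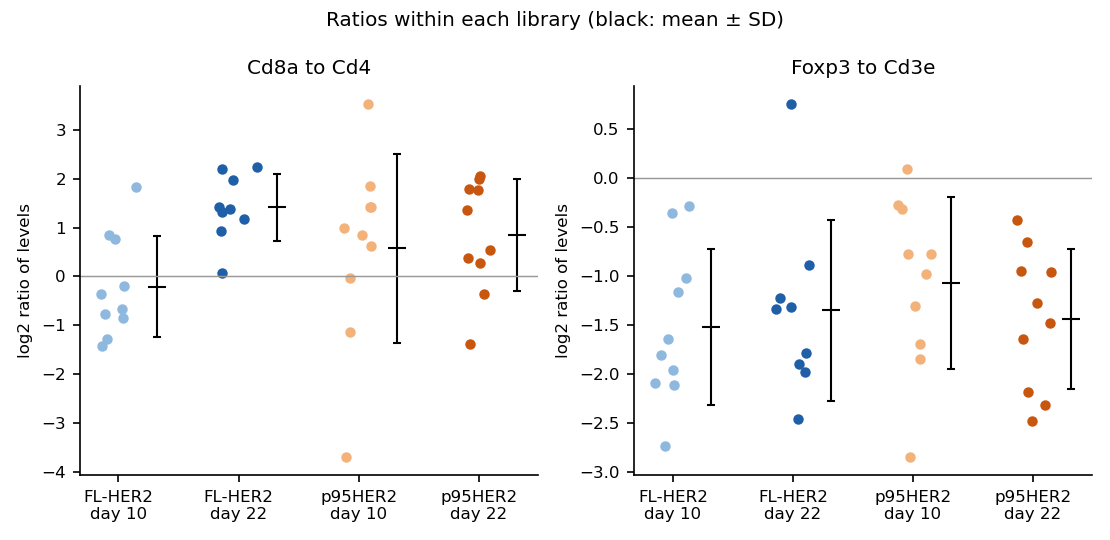
Points are the log2 ratio of Cd8a to Cd4 (left) and of Foxp3 to Cd3e (right) in each library, with mean and SD of the group in black. The left ratio is above 0 in all 9 FL-HER2 day 22 libraries and on both sides of 0 in the other groups, and the ranges of the right ratio overlap between all groups.

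Across the 39 libraries the members varied together within groups. Deviations of the log2 value from the group mean were correlated with those of Cd3e, and 26 of the other 30 members had a Pearson r above 0.5 and 15 above 0.8. The closest were Cd3d (r = 0.92, rho = 0.90), Cd2 (0.91, 0.91), Cd5 (0.89, 0.88), Lat (0.89, 0.85) and Il2rb (0.88, 0.84), each with the smallest p that 100000 permutations can give for r and for rho (1e-05; 1.57e-05 and 1.64e-05 adjusted over 36 relations). Without the 2 libraries whose Cd3e deviated most from its group mean, p95HER2 day 10 replicate 6 and FL-HER2 day 22 replicate 7, r was 0.90 for Cd3d, 0.91 for Cd2, 0.86 for Cd5, 0.84 for Lat and 0.86 for Il2rb, and 26 of the 30 were above 0.5 and 11 above 0.8. The correlation was weaker for Foxp3 (0.66) and Bcl11b (0.52), and below 0.5 for Ccr4 (0.48), Cd40lg (0.25), Trat1 (0.021) and Tcf7 (-0.29, rho = -0.19, permutation p = 0.0851 and 0.266). Ccr4, Cd40lg and Trat1 had few reads, whereas Tcf7 had at least 739 reads in each library. Within p95HER2 at day 10 the r of Tcf7 was -0.89 and in the other groups it ran from -0.22 to 0.28.

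The NK cell score followed Cd3e more closely than most members did (r = 0.89, rho = 0.89), and only Cd3d and Cd2 had a higher r. The score is a mean over 5 genes while each member is 1 gene, so this ranking sets unlike measures side by side. The list has 12 genes, 10 in the table and 5 tested, some of which cytotoxic T cells also express. Its sums ran from 3.77 to 25.5 CPM in FL-HER2 at day 10, 4.87 to 34.9 CPM at day 22, 1.43 to 35.3 CPM in p95HER2 at day 10 and 1.90 to 25.6 CPM at day 22. Its defining marker Ncr1 had group means of 0.166 to 0.613 CPM. At day 22, 1 of the 5 was lower in p95HER2, Klrk1 (-1.44 ± 0.43, adjusted p = 0.0427), and with time in FL-HER2 0 rose and Gzma fell (-1.42 ± 0.50, adjusted p = 0.0176). Their part in the values of Il2rb, Cd2 and the other members that NK cells share was not tested. The r of the other scores with Cd3e was 0.56 for macrophages, 0.51 for B cells, 0.39 for skeletal muscle, 0.22 for epithelium and -0.10 for skin.

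**Figure D5:**
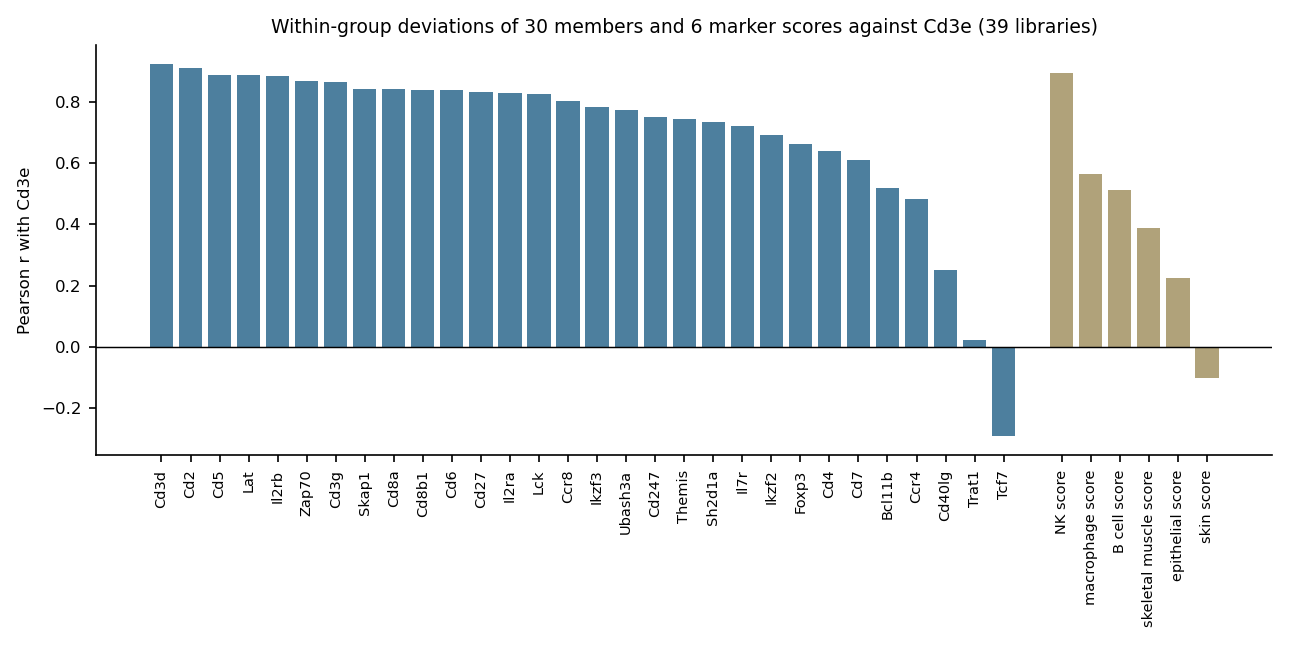
Bars are the Pearson r between Cd3e and each other member (blue) or marker score (tan), over deviations from the group mean of the log2 value in 39 libraries. Most members lie above 0.5, the NK score is at 0.89, and Tcf7 is the lowest at -0.29.

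Of 34 further genes of antigen receptor signalling, 30 were tested, and at day 22 1 was higher and 6 were lower in p95HER2 (median -0.32), where 2.98% and 1.54% of all genes were. They included the phosphatase Ptprc (CD45, -0.79 ± 0.19, adjusted p = 0.0101), the small GTPase Rhoh (-0.75 ± 0.20, 0.0227) and the costimulatory receptor Cd28 (-1.37 ± 0.37, 0.0247). With time in FL-HER2 7 of the 30 rose and 7 fell (median 0.030), beside 20.7% and 30.6% of all genes, with Pag1 up (0.78 ± 0.10, 3.66e-08) and the factor Nfatc1 down (-1.41 ± 0.11, 5.00e-13), genes that many other cells express. Of 26 genes of T cell transcription and homing, 25 were tested, and at day 22 1 was higher and 4 lower (median -0.013), among them the integrin Itgae (CD103), which binds epithelial E-cadherin (-1.44 ± 0.31, 0.00452). Itgae rose in FL-HER2 by 2.48 ± 0.31 (adjusted p = 2.63e-08), from a mean of 0.999 ± 0.321 to 6.37 ± 2.49 CPM (SD), while 5 genes of that list rose and 12 fell. Of 17 genes of the common gamma chain cytokines, 12 were tested, and only the chain itself, Il2rg, was lower in p95HER2 at day 22 (-0.81 ± 0.24, adjusted p = 0.0420). The markers of lymph node stroma were at 0.165 to 2.79 CPM in sum, and none passed the filter. Of the lists for type 2 innate lymphoid cells, dendritic cells, mast cells, neutrophils, skin, skeletal muscle, epithelium, fibroblasts and endothelium, at most 1 gene each passed at day 22: Il1rl1 (1.02), Krt14 (0.75) and Emcn (0.63) were higher in p95HER2 and Itgax (-0.76) was lower. With time in FL-HER2, 10 of 10 fibroblast, 9 of 10 endothelial, 8 of 22 muscle and 3 of 8 tested skin genes fell, against 30.6% of all genes. In the same comparison 3 of 8 tested dendritic cell genes rose and 2 fell, against 20.7% and 30.6% of all genes. The part of these changes in the values of the members was not tested.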

How the data were processed

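RNA of 39 PB2 tumor libraries was measured by poly(A) sequencing. The deposited table holds log2 values of 20520 genes. Although it is named as CPM, the authors' log2 values equal log2(count divided by a size factor, plus 1): all values (100%) gave whole reads within 0.001 reads, so whole reads and CPM were recovered from them. STAR 2.4.2a, mm10 and DESeq2 are named in the submitters' processing notes. For the counter, the annotation and the strand setting, the labels name nothing (not given in the sources used here).

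Fits used limma 3.58.1 in R 4.3.3 on the deposited log2 values (lmFit, contrasts.fit, eBayes with a trend) over the 13650 genes with 1 CPM or more in at least 9 libraries, with 1 coefficient per group. Tests were two-sided, and p-values were adjusted by Benjamini-Hochberg per comparison with a threshold of 0.05. Each change is a difference of log2 values with that pseudocount of 1, which understates the change of low genes. Ratios within libraries were compared by permutation of the group labels, exact where a group has under 10 values and with 100000 resamples otherwise. Library totals were 21772259 to 44427621 reads.

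The members and 16 other gene lists were chosen with earlier results of these data known. Members called in any comparison, and Cd3d, Cd3e, Cd3g, Cd4, Cd8a, Foxp3 and Bcl11b in any case, are described by group. Of each other list at most 3 genes with the smallest adjusted p are named per comparison, with defining or abundant markers for other cell types. Alternatives changed the pseudocount, the filter, the scaling, the groups fitted, the weights (voom), covariates (muscle, skin and B cell scores, digits of the tumor number) and the libraries. Leaving out the 11 libraries with a skin score above 5 was chosen after seeing the data. Gene positions are from GENCODE (mm10) and start windows from RefSeq (GRCm38.p6). The fit was tested on simulated data.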

Additional observations from a re-analysis of the deposited data

Results flagged for a closer look

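In 27 of 132 tests of a group, 1 library stood apart from the others by its gap to the nearest one. The nominal rate of flags by chance is about 1 in 20 groups, and it was not checked for skewed values or few reads. The tests are not independent, because 1 library was often the extreme one for several members.

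In p95HER2 at day 10, replicate 6 stood apart upward for 11 members, at 8.06 CPM for Cd3e, 7.31 for Cd3g, 20.9 for Cd8a, 7.03 for Cd8b1, 11.8 for Lck, 4.999 for Zap70, 4.89 for Lat, 1.54 for Themis, 3.91 for Ikzf3, 23.8 for Il2rb and 5.74 for Il2ra. Replicate 8 of that group had 0.170 CPM of Trat1 against a median of 0. In p95HER2 at day 22, replicate 6 stood apart for 8 members, at 3.34 CPM for Cd3d, 13.6 for Cd8a, 2.83 for Cd6, 1.37 for Cd7, 2.16 for Cd27, 0.922 for Themis, 0.508 for Sh2d1a and 2.67 for Ikzf3. In FL-HER2 at day 10, replicate 4 stood apart at 4.28 CPM for Cd3g, 3.79 for Cd8b1, 3.30 for Lat and 0.862 for Ubash3a. In FL-HER2 at day 22, replicate 9 had 0.413 CPM of Cd40lg, replicate 1 had 7.63 CPM of Il7r, and replicate 7 had a log2 ratio of Foxp3 to Cd3e of 0.76 against a median of -1.34.

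For 4 members the effect of p95HER2 differed between the days by the interaction test of limma: -1.32 for Bcl11b, -1.77 for Foxp3, -0.58 for Ikzf2 and -0.43 for Tcf7 on the log2 scale.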

How the results depend on the processing

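At day 10 the count of 2 called members became 1 with a pseudocount of 5, without the filter, with the filter at 0.1 CPM, with library totals, with voom, with the muscle, skin or B cell score, and with the digits of the tumor number. The 1 left was Tcf7, higher in p95HER2, where 3.89% (digits) to 21.4% (library totals) of all genes were higher. At day 22 the 13 calls became 6 with the muscle score and 5 without the skin-high libraries. In these fits 1.16% and 0.359% of all genes were lower, against 1.54% in the main fit. With time in FL-HER2 the 17 rises became 0 rises and 2 falls with the B cell score, where 15.7% of all genes rose and 25.7% fell. That score did not overlap between the days in either construct, so the fit cannot tell it from time. With the digits the 17 rises became 2, where 7.60% of all genes rose, against 20.7% in the main fit. In the fit with the digits the FL-HER2 day 10 level rests on 2 libraries. With time in p95HER2 the 2 falls became 7 with the B cell score, where 11.0% of all genes fell, against 18.6% in the main fit. For the change between days the 4 became 13 with quantile normalization, 9 with the muscle score, 7 with the B cell score and 2 with the digits. Each was in the negative direction, where 11.9%, 4.64%, 6.08% and 0.755% of all genes were called in the same order. In the main fit 6.2% of all genes were. The causes were not tested. With time in FL-HER2 the B cell score turned Cd3d to -0.53, Cd3e to -0.077, Cd6 to -0.085, Cd27 to -0.22, Zap70 to -0.28, Ikzf2 to -0.0064, Il7r to -0.033 and Il2ra to -0.014, and the digits turned Ikzf2 to -0.035 and Il7r to -0.026. Without 1 library at a time the counts ran from 1 to 8 at day 10, 5 to 20 at day 22, 15 to 18 with time in FL-HER2, 2 to 3 with time in p95HER2 and 3 to 5 for the change between days. At day 10, 1 member was higher and 7 lower without p95HER2 replicate 6, where 15.2% and 26.2% of all genes were. At day 22, 5 were lower without FL-HER2 replicate 1 (0.593% of all genes) and 20 without p95HER2 replicate 6 (2.48%). With time in FL-HER2, 16 rose without FL-HER2 day 22 replicate 1 (20.2%) and 18 without replicate 7 (20.6%). Shares for the remaining fits are not given here. Without 1 library at a time the log2 ratio of Cd8a to Cd4 differed by 0.46 to 1.27 at day 10, -0.74 to -0.33 at day 22, 1.49 to 1.85 with time in FL-HER2 and -0.22 to 0.59 in p95HER2. That of Foxp3 to Cd3e differed by 0.31 to 0.64, -0.23 to 0.17, -0.095 to 0.31 and -0.56 to -0.24 in the same order. No paired analysis was possible because the replicate numbers only follow the order of the records. Members with few reads, such as Cd40lg and Trat1, are limited by depth.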
